A study of Mus musculus with 6 samples.

Results

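The 10 genes Adipoq, Cfd, Fabp4, Retn, Lep, Cidec, Plin1, Plin4, Car3 and Pparg are textbook genes of the white fat cell, and their RNA was measured in 6 libraries of mouse ovary. They were chosen by name and found by NCBI Gene ID, and all 10 were among the 45679 genes with a symbol in the files. The choice was made with earlier results of these libraries known, including the TPM of these genes, so their values are a description, and counts of calls among them test nothing. Positions of genes are those of the files, on mm10. TPM is transcript abundance scaled for transcript length and to a fixed total per library.

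All ovaries were from wild type mice of the hybrid BDF1. Per the labels, 2 libraries came from mice 65 weeks old that received MIT-001, an antioxidant compound directed to mitochondria, at 0.5 mg/kg, 2 from mice 65 weeks old that received PBS, and 2 from mice 8 weeks old that received PBS, in each case by intraperitoneal injection over 7 days. The libraries are called labelled old MIT-001, labelled old PBS and labelled young PBS below. Which animals gave each library is not stated, so errors measure the spread between libraries, and ovary tissue holds many cell types.

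The files held 14317 to 16304 genes of at least 1 TPM per library. Genes of oocytes and the plasma cell gene Igkc went against the age labels of the PBS libraries. The oocyte growth factor gene Gdf9 had 22.8 and 9.35 TPM with the label old MIT-001 and 116 and 108 TPM with old PBS, against 73.3 and 9.51 TPM with young PBS. Igkc, an immunoglobulin chain of plasma cells, had 887 and 73.8 TPM with the label old MIT-001 and 9.50 and 10.6 TPM with old PBS, against 1340 and 174 TPM with young PBS. The plasma cell genes Jchain and Mzb1 were likewise lower on average with old PBS than with young PBS. Derl3, from the same list, was higher, at 39.9 and 52.0 TPM with old PBS against 39.7 and 11.1 TPM with young PBS. Because some markers went against the labels, every direction below holds for the libraries as labelled.

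A white fat cell keeps triglyceride in a single large droplet coated by perilipin 1 and CIDEC, and it secretes the hormones adiponectin, leptin and resistin and the protease adipsin. PPAR gamma, a nuclear receptor, switches on most of this program together with C/EBP factors. Steroid-making cells of the ovary, which are luteal, theca and interstitial cells, also hold lipid droplets, but many small ones that store cholesterol esters for hormone synthesis. In mice, fat also lies next to the ovary, around its bursa.

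The sequence upstream of each gene's start is shown for 4 of the genes, because Adipoq and Lep proved to share a pattern across libraries that Plin1 and Pparg did not. The windows are from RefSeq on GRCm38.p6, 5′ to 3′ on the gene's strand, with 250 bases before and 50 after the start. Capitals mark matches on either strand to the C/EBP motif TTGCNNAA.
Adipoq (chr16:23146286-23146585, plus strand): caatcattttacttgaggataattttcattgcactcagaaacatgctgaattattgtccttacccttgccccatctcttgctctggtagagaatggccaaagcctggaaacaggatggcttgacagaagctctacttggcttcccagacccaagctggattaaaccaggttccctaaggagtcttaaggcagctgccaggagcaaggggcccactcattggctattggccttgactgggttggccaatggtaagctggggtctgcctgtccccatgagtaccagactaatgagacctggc
Lep (chr6:29059971-29060270, plus strand): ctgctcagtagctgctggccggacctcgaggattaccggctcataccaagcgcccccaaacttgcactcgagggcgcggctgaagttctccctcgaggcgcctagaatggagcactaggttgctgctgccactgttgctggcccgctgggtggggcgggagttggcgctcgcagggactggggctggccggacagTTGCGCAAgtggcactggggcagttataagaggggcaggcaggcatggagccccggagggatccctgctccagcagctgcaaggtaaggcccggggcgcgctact
Plin1 (chr7:79732727-79733026, minus strand): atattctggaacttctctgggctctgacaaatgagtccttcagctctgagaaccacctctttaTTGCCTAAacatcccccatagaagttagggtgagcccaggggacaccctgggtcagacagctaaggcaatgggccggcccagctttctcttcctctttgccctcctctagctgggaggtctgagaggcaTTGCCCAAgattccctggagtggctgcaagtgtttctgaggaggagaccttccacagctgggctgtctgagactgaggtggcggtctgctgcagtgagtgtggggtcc
Pparg, last start (chr6:115421816-115422115, plus strand): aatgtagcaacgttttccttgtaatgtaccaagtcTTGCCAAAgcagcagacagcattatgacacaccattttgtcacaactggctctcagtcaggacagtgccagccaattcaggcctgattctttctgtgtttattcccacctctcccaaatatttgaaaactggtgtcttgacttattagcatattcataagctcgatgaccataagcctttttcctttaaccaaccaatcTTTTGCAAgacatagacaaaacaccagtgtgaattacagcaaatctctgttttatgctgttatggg

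RefSeq windows existed for 8 of the 10 genes and numbered 11, since Cidec and Pparg have several starts; Fabp4 and Car3 were not among the 8. The motif TTGCNNAA was found in 4 of the 11 windows and in 10.8% of all 32851 windows of that length. Lep held the palindrome TTGCGCAA, which is a special case of that motif and was in 0.183% of all windows. The nuclear receptor motif AGGTCA was in 2 of the 11 windows, both of Pparg, and in 16.3% of all windows. The PPAR element, a direct repeat of AGGTCA with 1 base between, was in 0 of the 11 windows and in 0.0396% of all, and the SF-1 motif CAAGGTCA in 0 of 11 and in 1.56% of all. Both of these contain AGGTCA. A match is a run of letters and not a shown binding site. Pparg has 3 windows, and the last start lies 60922 bases after the first; in mouse, the fat cell isoform Pparg2 starts downstream of the widely used Pparg1. The files give a single value per gene, so the isoforms were not separated.

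The hormone genes of fat were low in 5 libraries and high in 1, replicate 1 labelled young PBS. Adipoq (chr16:23146536-23157968), which encodes adiponectin, an insulin-sensitising hormone, was at 1.27 and 2.36 TPM in libraries labelled old MIT-001, at 0.170 and 0.314 TPM with old PBS, and at 21.5 and 1.05 TPM in libraries labelled young PBS. The highest library stood 9.11-fold above the next and 126-fold above the lowest. The ranges of the old MIT-001 and old PBS groups did not overlap, while the old MIT-001 values lay inside the wide range of young PBS. The mean read depth over the gene was 78.8 in replicate 1 labelled young PBS and 0.492 in replicate 1 labelled old PBS, so the low values rest on few reads. In bulk RNA, fewer fat cells and less RNA per fat cell cannot be told apart.

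Cfd (chr10:79890853-79892655), which encodes adipsin, the complement factor D made by fat, stood at 4.45 and 2.78 TPM with the label old MIT-001, at 0.213 and 1.81 TPM with old PBS, and at 77.2 and 3.49 TPM with young PBS. Its highest library was 17.4-fold above the next. Retn (chr8:3655770-3659818), which encodes resistin, a hormone of white fat in mice, had 1.13 and 0.443 TPM with old MIT-001, 0.123 and 0.425 TPM with old PBS, and 19.0 TPM in replicate 1 labelled young PBS, and was listed at 0 in replicate 2 with that label. The replicates labelled young PBS were thus the highest and the lowest of all 6 for Retn. Lep (chr6:29060221-29073876), which encodes the satiety hormone leptin, had 0.0945 and 0.146 TPM in libraries labelled old MIT-001, was listed at 0 and at 0.0216 TPM in libraries labelled old PBS, and had 1.26 and 0.0973 TPM in libraries labelled young PBS. Read depth over Lep was at most 4.61, in the highest library. Only 1 library reached a TPM of 1 for Lep, and only 1 for Cidec, so these 2 genes did not enter the tests, which took genes of at least 1 TPM in at least 2 libraries.

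Fabp4 (chr3:10204342-10208616), the fatty acid carrier of fat cells that capillary endothelium and macrophages also make, was at 33.2 and 24.3 TPM in libraries labelled old MIT-001, at 3.93 and 7.77 TPM with old PBS, and at 161 and 7.10 TPM in libraries labelled young PBS. Replicate 2 labelled young PBS lay within the old PBS range, while both old MIT-001 libraries lay above it. Car3 (chr3:14863538-14872381), carbonic anhydrase 3 of fat and slow muscle, showed a further pattern. It was at 53.0 and 63.1 TPM with old MIT-001, at 0.885 and 5.92 TPM with old PBS, and at 117 and 29.0 TPM with young PBS. The old PBS libraries were the lowest for Car3, and the old MIT-001 libraries lay between the replicates labelled young PBS.

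**Figure D1:**
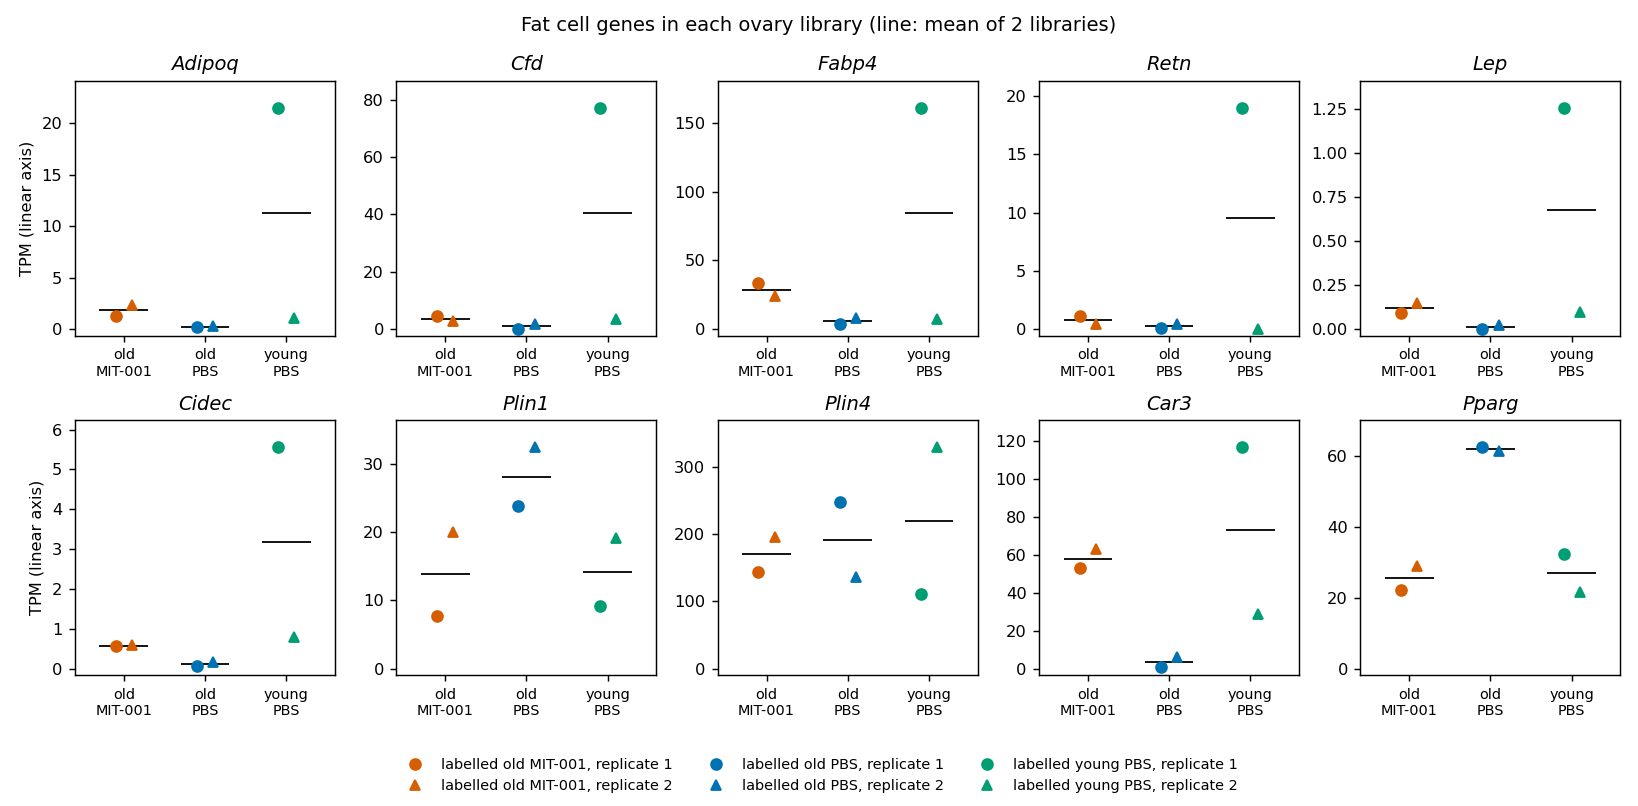
TPM of each fat cell gene (linear axes, each gene with its own scale) in libraries labelled old MIT-001, old PBS and young PBS; points are libraries and lines are means of 2. Adipoq, Cfd, Fabp4, Retn, Lep, Cidec and Car3 are highest in replicate 1 labelled young PBS, while Plin1 and Pparg are highest in libraries labelled old PBS and Plin4 in replicate 2 labelled young PBS.

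Among the droplet coat genes, Cidec and the perilipins parted. Cidec (chr6:113424634-113435760), which encodes the protein that fuses droplets in white fat, was at 0.558 and 0.590 TPM in libraries labelled old MIT-001, at 0.0667 and 0.155 TPM with old PBS, and at 5.56 and 0.788 TPM in libraries labelled young PBS. Plin1 (chr7:79721164-79732904), the perilipin that gates lipolysis in fat cells, had 7.78 and 20.1 TPM with old MIT-001, 23.8 and 32.5 TPM with old PBS, and 9.16 and 19.2 TPM with young PBS. The library with the most Adipoq was thus the second lowest for Plin1. Plin4 (chr17:56100587-56109948), a perilipin of nascent small droplets, had 143 and 196 with old MIT-001, 247 and 136 with old PBS, and 110 and 329 TPM with young PBS, and its lowest library was the one with the most Adipoq. All of these groups overlapped for Plin4. Its gene overlaps Hdgfl2 on the other strand, but in GENCODE M21 only 17 of 5777 exonic bases are shared.

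Pparg (chr6:115360879-115490404) had 22.3 and 28.9 TPM in libraries labelled old MIT-001, 62.5 and 61.4 TPM in libraries labelled old PBS, and 32.4 and 21.7 TPM in libraries labelled young PBS. Its means were 25.6 ± 4.72 TPM with old MIT-001, 61.9 ± 0.816 TPM with old PBS and 27.0 ± 7.58 TPM with young PBS (SD, n = 2 each), so both old PBS libraries stood above the other 4. The level of Pparg relative to other genes is uncertain: its TPM was 22.2 to 23.4 times the TPM that its read depth would give at the most common scale, which 36.7% to 38.4% of genes shared within 1%, while this factor was 1.00 for Adipoq, Cfd, Lep and Car3, 1.31 for Fabp4 and 1.13 to 2.21 for Retn. In each library between 2.63% and 2.77% of genes above 1 TPM had a factor above 10. The factor for Pparg was nearly the same in all 6 libraries, and both libraries labelled old PBS were also the highest by read depth alone. The reason for the factor was not tested.

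Each gene was also divided by Adipoq within a library, which describes which genes varied together and does not test where their RNA came from. Lep per Adipoq was 0.0744 and 0.0617 in libraries labelled old MIT-001, 0.0688 in replicate 2 labelled old PBS, and 0.0586 and 0.0923 in libraries labelled young PBS, a range of 1.58-fold over the 5 libraries above 0. Cidec per Adipoq ranged 2.99-fold over the 6 libraries and Cfd per Adipoq 4.89-fold, although Adipoq itself ranged 126-fold. Retn per Adipoq was 0.885 in replicate 1 labelled old MIT-001 and 0.885 in replicate 1 labelled young PBS, but 0.188 in replicate 2 labelled old MIT-001. With old PBS it was 0.721 and 1.35, and it was 0 in replicate 2 labelled young PBS. Retn per Adipoq thus ranged 7.20-fold over the 5 libraries above 0, wider than for Lep, Cidec or Cfd. In the libraries with little Adipoq these ratios rest on few reads. The range depends on the divisor: on the log2 scale Lep ranged over 0.66 per Adipoq, 1.56 per sum of Adipoq, Cfd, Retn and Cidec, a divisor chosen after the data were seen, and 3.95 when Plin1 was part of the sum.

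Fabp4 per Adipoq was 26.1 and 10.3 in libraries labelled old MIT-001, 23.1 and 24.8 in libraries labelled old PBS, and 7.48 and 6.74 in libraries labelled young PBS. At the ratio of replicate 1 labelled young PBS, the Adipoq present corresponds by arithmetic to 28.6% and 72.7% of the Fabp4 measured in libraries labelled old MIT-001, to 32.4% and 30.2% in libraries labelled old PBS, and to 111% in replicate 2 labelled young PBS. By the same ratio, 13.1% and 20.4% of the Car3 measured in libraries labelled old MIT-001 corresponds to their Adipoq, 105% and 28.9% with old PBS, and 19.8% in replicate 2 labelled young PBS. Car3 per Adipoq ranged 8.01-fold in all. The same arithmetic gave widely spread shares for other fat genes, outside the library that sets the ratio. They were 62.4% to 305% for Cfd and 34.6% to 103% for Cidec. For Retn they were 65.4% to 471% in libraries where it was above 0. These shares therefore do not measure the part of a gene's RNA that came from fat cells.

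The perilipins and Pparg did not keep a ratio to Adipoq. Plin1 per Adipoq was 6.12 and 8.51 in libraries labelled old MIT-001, 140 and 104 in libraries labelled old PBS, and 0.426 and 18.3 in libraries labelled young PBS, a range of 329-fold. Plin4 per Adipoq ranged 283-fold and Pparg 244-fold. At the ratio of replicate 1 labelled young PBS, Adipoq corresponds to 6.96% and 5.01% of Plin1 in libraries labelled old MIT-001, 0.304% and 0.412% in libraries labelled old PBS, and 2.33% in replicate 2 labelled young PBS. For Plin4 these shares were at most 6.15% and for Pparg at most 12.3%, both in replicate 2 labelled old MIT-001, outside the library that sets the ratio.

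**Figure D2:**
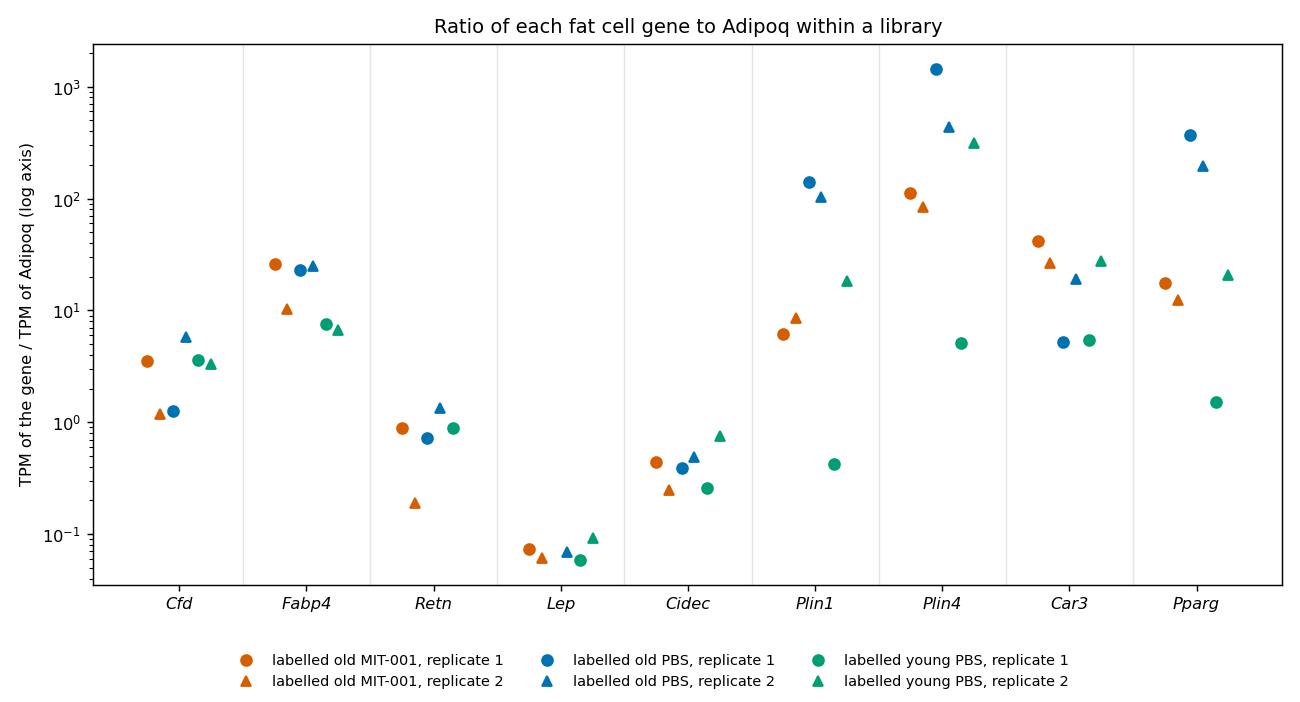
TPM of each gene divided by the TPM of Adipoq in the same library (log axis), with a point per library; libraries where the gene is listed at 0 are left out. Lep spans 1.58-fold and Cidec 2.99-fold, whereas Plin1 spans 329-fold, all for Adipoq as the divisor, with replicate 1 labelled young PBS the lowest at 0.426.

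The same genes were set against the most abundant marker of other cell types, a choice made after the values were seen. Plin4 per Cyp11a1, the enzyme of the first step of steroid synthesis, ranged 1.76-fold over the 6 libraries, at 12.5 and 15.4 TPM of Plin4 per 1000 TPM of Cyp11a1 in libraries labelled old MIT-001, 14.3 and 9.07 in libraries labelled old PBS, and 12.2 and 15.9 in libraries labelled young PBS. Pparg per Inha, the inhibin alpha subunit of granulosa cells, ranged 1.51-fold, at 15.9 and 13.0 with old MIT-001, 15.1 and 12.0 with old PBS, and 15.8 and 10.6 TPM of Pparg per 1000 TPM of Inha with young PBS. Pparg alone ranged 2.89-fold and Inha alone 3.64-fold, so their ratio was steadier than either. Plin1 ranged 2.10-fold per Inha and 3.19-fold per Cyp11a1, with 4.18-fold on its own. Adipoq, Cfd, Retn, Lep and Cidec ranged 97.1-fold or more per Cyp11a1 and 145-fold or more per Inha. These ranges describe 6 libraries, carry no test, and are narrow for any pair of genes that each vary little.

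**Figure D3:**
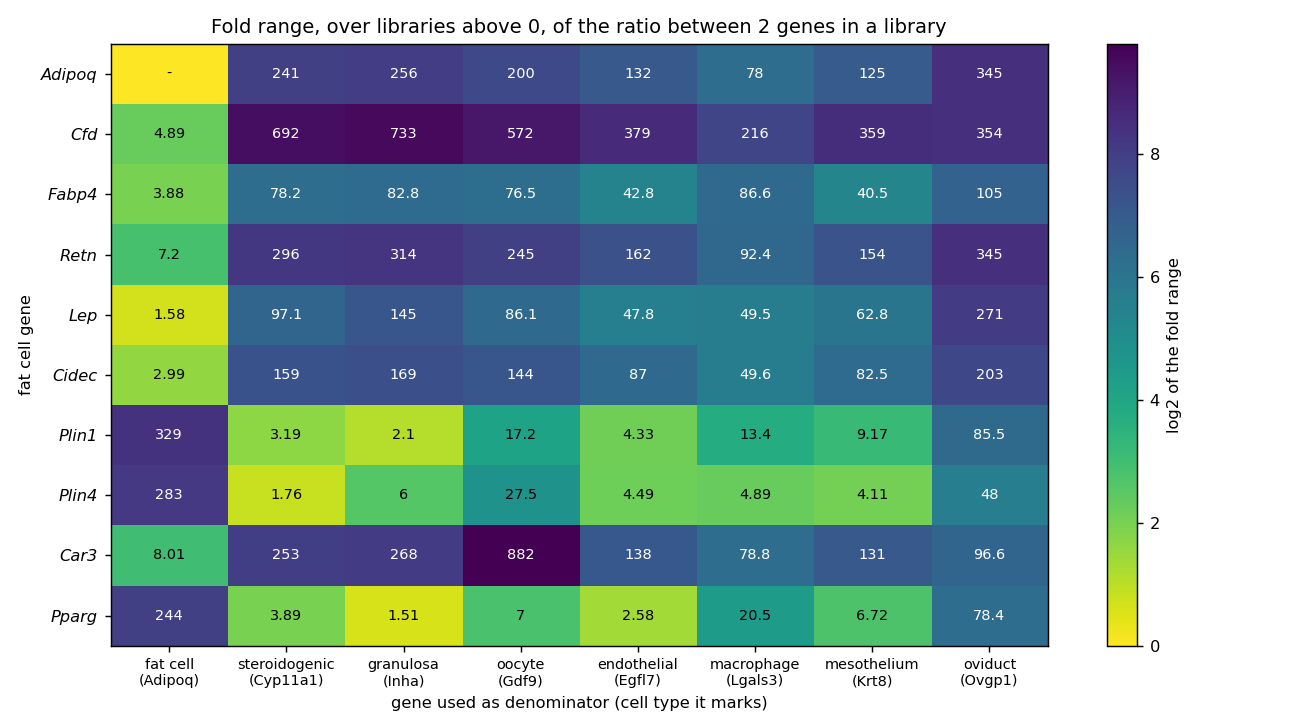
Highest over lowest ratio, across libraries above 0, of each fat cell gene (rows) to Adipoq and to the most abundant marker of 7 other cell types (columns); colour is the log2 of that fold range. Plin4 is steadiest against Cyp11a1 (1.76) and Pparg against Inha (1.51), while Lep, Cidec, Fabp4, Cfd, Retn and Car3 are steadiest against Adipoq (1.58 to 8.01).

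The first comparison, of the old PBS with the young PBS label, asks what differs with labelled age; 8 of the 10 genes were lower on average and 2 higher. Values are log2 fold changes of TPM + 1, which understate changes of low genes, with limma's standard error. Car3 was at -4.04 ± 0.81, Cfd at -3.34 ± 1.27, Fabp4 at -2.46 ± 1.28, Adipoq at -2.45 ± 1.04 and Retn at -1.82 ± 1.28, whereas Pparg was at 1.19 ± 0.27, Plin1 at 1.01 ± 0.52 and Plin4 at -0.05 ± 0.56. The libraries of the groups did not overlap for 2 genes that were higher, Plin1 and Pparg, and for 5 that were lower. The untested Lep and Cidec were among these 5. Of the 16473 genes tested, 38.1% were higher and 11.0% were lower without overlap. The median over the 8 genes tested was -2.14, beside 0.23 over all genes tested.

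By limma's test 0 of the 8 genes tested were called at an adjusted p below 0.05, beside 0.0364% of all genes tested, and 3 of the 8 had an unadjusted p below 0.05, beside 18.1% of all genes tested. When replicate 1 labelled young PBS was left out, the median over the 7 genes then tested stood at -0.73 and Pparg at 1.47. When replicate 2 was left out, the median stood at -4.08. The members were chosen with these values known, so nothing is read from either count.

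The libraries labelled old MIT-001 and old PBS differ by the compound as labelled. Here 7 of the 10 genes were higher and 3 lower with old MIT-001. Car3 stood at 4.02 ± 0.81, with 58.0 ± 7.17 TPM in libraries labelled old MIT-001 against 3.40 ± 3.56 TPM with old PBS (SD, n = 2 each). Fabp4 was at 2.16 ± 1.28, Cfd at 1.30 ± 1.27, Adipoq at 1.16 ± 1.04 and Retn at 0.47 ± 1.28, and the untested Cidec and Lep at 0.50 and 0.15. Pparg was at -1.25 ± 0.27, Plin1 at -1.08 ± 0.52 and Plin4 at -0.13 ± 0.56. All 7 higher genes, the untested Lep and Cidec among them, and 2 of the 3 lower genes had no overlap between groups. The shares of all genes tested were 27.2% and 24.2%. The median over the 8 genes tested was 0.81, beside 0.03 over all genes tested.

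None of the 8 was called by limma in this comparison, beside 0.0182% of all genes tested, and 2 of the 8 had an unadjusted p below 0.05, beside 11.8% of all genes tested. Car3 and Pparg were called when the 4 libraries compared were fitted alone, as were 442 of the 16015 genes tested in that run. The fit shares its estimate of spread with the young PBS group, whose replicates stood far apart for most of these genes. Both comparisons so far use the old PBS libraries, so their opposed signs are not independent of each other.

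The libraries labelled old MIT-001 were also set against those labelled young PBS. All 10 genes were lower on average, from -2.05 ± 1.27 for Cfd to -0.02 ± 0.81 for Car3. Only Cidec, which was not tested, did not overlap between groups. Of all genes tested, 37.3% were higher and 6.56% were lower without overlap. By limma 0 of 8 were called, beside 0% of all genes tested, and 0 of the 8 had an unadjusted p below 0.05, as 2954 of all genes tested did (17.9%). Without replicate 1 labelled young PBS, Fabp4 was at 1.86, Car3 at 0.97 and Adipoq at 0.43, each above 0, so the direction of these genes turned without that library. The median was -0.24 with all libraries and -1.73 without replicate 2 labelled young PBS.

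**Figure D4:**
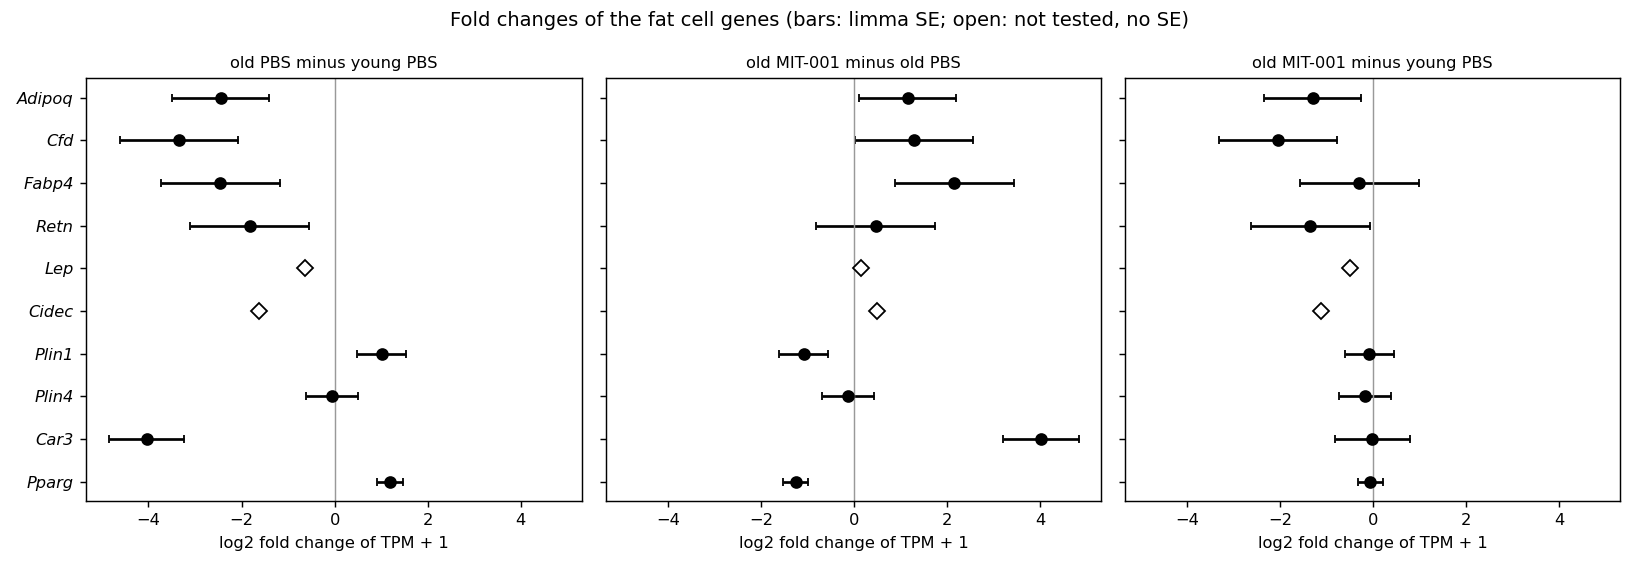
Log2 fold change of TPM + 1 for each gene in the 3 comparisons, positive where the first-named group is higher; bars are limma's standard errors, and open symbols mark Lep and Cidec, which were not tested. Car3 stands at -4.04 in old PBS minus young PBS, at 4.02 in old MIT-001 minus old PBS and at -0.02 in old MIT-001 minus young PBS.

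Other genes of lipid storage and of other cell types were read from 17 lists of 168 genes, 143 of them tested. Among 14 further markers of white fat, 7 passed the filter, and the list did not move together. Of the 14, 7 were highest in replicate 1 labelled young PBS, and the others were not. Most of the markers that peaked there were too low to be tested. The 11.8% of all genes tested that peaked there is thus not a like share. Mrap, a melanocortin receptor partner found in fat and in steroid-making cells, was at 266 and 232 TPM with old MIT-001, at 302 and 297 TPM with old PBS, and at 244 and 355 TPM with young PBS. Cebpa, the C/EBP factor that works with PPAR gamma, had 30.6 and 30.6 with old MIT-001, 45.0 and 53.9 with old PBS, and 24.1 and 39.2 TPM with young PBS. Thrsp, a regulator of fatty acid synthesis, had 33.0 and 23.9 with old MIT-001, 38.9 and 33.8 with old PBS, and 60.6 and 8.59 TPM with young PBS, highest in the library with the most Adipoq. The glycerol phosphate dehydrogenase gene Gpd1 had 37.0 and 15.9 with old MIT-001, 3.75 and 20.6 with old PBS, and 14.7 and 36.2 TPM with young PBS. Sncg, a synuclein gene of fat and nerve, peaked at 22.9 TPM in replicate 2 with the label old MIT-001 and had 1.82 and 0.627 TPM with old PBS, and 16.0 and 7.60 TPM with young PBS, so like Adipoq it was lowest in both libraries labelled old PBS. The receptor gene Adrb3, which triggers lipolysis, had 0.632 TPM in replicate 1 labelled young PBS and at most 0.129 TPM elsewhere. The gluconeogenic enzyme gene Pck1 had 0.805 TPM in replicate 1 labelled young PBS, but also 0.769 TPM in replicate 2 labelled old MIT-001. In the order old PBS minus young PBS, old MIT-001 minus old PBS and old MIT-001 minus young PBS, which is kept for all triplets of counts and medians below, 0 of the 7 were called by limma, with 1, 1 and 0 at an unadjusted p below 0.05. For these and the further counts at an unadjusted p, the shares of all genes tested were 18.1%, 11.8% and 17.9% in the same order. The 14 genes summed to 330 to 380 TPM with old MIT-001, 397 to 410 with old PBS and 369 to 450 with young PBS, and most of that was Mrap. Without Mrap they summed to 113 and 98.6 TPM with old MIT-001, 95.0 and 113 TPM with old PBS, and 126 and 94.9 TPM with young PBS.

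The defining gene of brown fat was at or near 0. Ucp1, its uncoupling protein, was listed at 0 in 5 libraries and at 0.0630 TPM in replicate 1 labelled young PBS. Of 8 brown fat genes 5 were tested and 0 called in any comparison, with 0, 1 and 3 at an unadjusted p below 0.05. Ppargc1a, a coactivator of mitochondrial genes, was at 2.03 and 1.48 TPM in libraries labelled old MIT-001, against 0.201 and 0.289 TPM in libraries labelled old PBS (log2 fold change 1.14 ± 0.32, limma's adjusted p 0.260).

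The droplet coats used outside fat were abundant in every library. Plin2, the perilipin of most droplet-bearing cells, ranged over 87.0 and 101 TPM with old MIT-001, 71.6 and 79.9 TPM with old PBS, and 78.1 and 143 TPM with young PBS. Plin3 lay at 98.0 and 92.4 with old MIT-001, 103 and 109 with old PBS, and 92.4 and 127 TPM with young PBS, and Plin5, a perilipin of oxidative tissues, at 76.6 and 71.9 with old MIT-001, 82.0 and 112 with old PBS, and 93.2 and 81.2 TPM with young PBS. Among the CIDE genes, Cidea lay between 0.238 and 1.92 TPM and Cideb between 0.237 and 0.638 TPM, so all 3 CIDE genes were under 2 TPM except Cidec in replicate 1 labelled young PBS. None of the 8 droplet genes tested was called by limma in any comparison, and 1, 0 and 2 had an unadjusted p below 0.05.

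**Figure D5:**
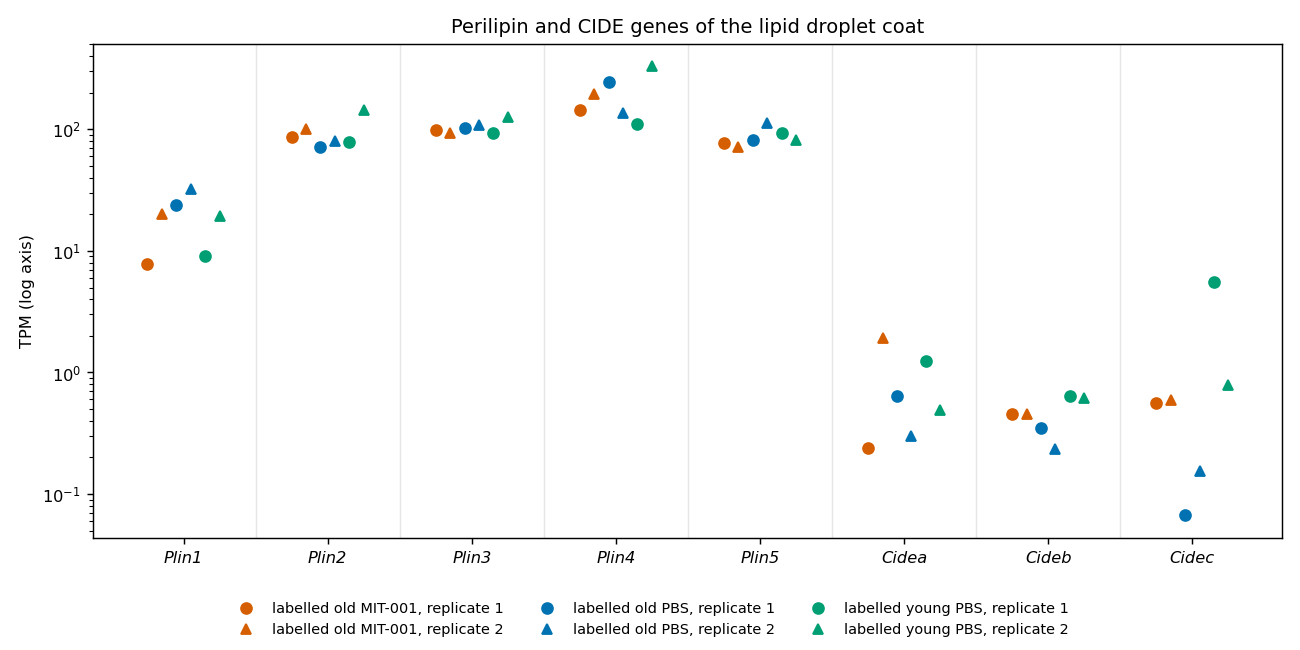
TPM (log axis) of the perilipin genes and the CIDE genes, which coat lipid droplets, with a point per library. The 5 perilipins stay within 4.18-fold across libraries or less, and Plin1 is the lowest of them, while Cidec spans 83.3-fold.

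The 18 genes of fatty acid and triglyceride metabolism, all tested, summed to 1297 to 1412 with old MIT-001, 1780 to 1824 with old PBS and 1148 to 1812 TPM with young PBS. In the libraries labelled old PBS 15 were higher and 3 lower than with young PBS (median log2 fold change 0.29), with old MIT-001 2 were higher and 16 lower than with old PBS (median -0.31), and with old MIT-001 against young PBS 8 were higher and 10 lower (median -0.09). The list's medians stand beside medians of 0.23, 0.03 and 0.24 over all genes tested. Acly, which makes acetyl-CoA for lipid synthesis, had 397 and 317 with old MIT-001, 449 and 490 with old PBS, and 327 and 440 TPM with young PBS, and the lipase gene Lipe, which also releases cholesterol from esters in steroid-making cells, 53.1 and 45.3 with old MIT-001, 52.4 and 58.5 with old PBS, and 50.3 and 112 TPM with young PBS. Gpam, which starts triglyceride synthesis, had 271 and 324 TPM with old MIT-001, 396 and 365 TPM with old PBS, and 148 and 475 TPM with young PBS, lowest in the library with the most Adipoq. The seipin gene Bscl2 lay between 68.7 and 188 TPM and the lipase gene Pnpla2 between 68.7 and 120 TPM. None of the 18 was called by limma, with 4, 3 and 1 at an unadjusted p below 0.05.

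The most abundant steroid genes stood far above these in TPM, while others of the list, such as Stard4 at 14.5 to 56.1 TPM, did not. Cyp11a1 was at 11469 and 12796 TPM with old MIT-001, 17237 and 15034 TPM with old PBS, and 9021 and 20654 TPM with young PBS. The lipoprotein receptor gene Scarb1, which brings cholesterol ester into these cells, was at 2772 and 2315 with old MIT-001, 4816 and 4354 with old PBS, and 1954 and 6802 TPM with young PBS. The cholesterol carrier gene Star lay between 1955 and 3928 TPM and the enzyme gene Hsd3b1 between 6228 and 13878 TPM. Replicate 1 labelled young PBS, which had the most Adipoq, was the lowest for Cyp11a1, for Scarb1 and for Plin4, and replicate 2 labelled young PBS was the highest for these 3. Not all steroid genes had this pattern. Star and Hsd3b1 were also highest in replicate 2 labelled young PBS, but lowest in replicate 2 labelled old MIT-001. The cholesterol carrier gene Npc2 was highest, at 466 TPM, in replicate 1 labelled young PBS. Of the 15 steroid and cholesterol genes 0 were called by limma in any comparison, with 5, 3 and 0 at an unadjusted p below 0.05, and medians of 0.24, -0.41 and -0.20. All 8 granulosa genes were higher in libraries labelled old PBS than in young PBS (median 1.32) and lower with old MIT-001 than with old PBS (median -1.38). The activin subunit gene Inhba was called in the first comparison (4.44 ± 0.35, limma's adjusted p 0.0433), and 7, 6 and 1 had an unadjusted p below 0.05. Pparg had the same 2 directions, as did all 6 oocyte genes and most of the 18 fatty acid and triglyceride genes. The source of Pparg RNA was not tested.

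Receptors for the fat hormones were found in every library. The adiponectin receptor genes Adipor1 and Adipor2 lay between 119 and 163 TPM and between 102 and 159 TPM. Cdh13, a cadherin that binds adiponectin, lay between 1.86 and 4.17 TPM, and Cap1, reported to bind resistin, between 208 and 294 TPM. Lepr, the leptin receptor, was at 14.6 and 12.1 TPM in libraries labelled old MIT-001, at 3.53 and 4.29 TPM with old PBS, and at 5.86 and 2.07 TPM in libraries labelled young PBS. The old MIT-001 libraries were the highest for Lepr, with log2 fold changes of 1.55 ± 0.43 against old PBS (limma's adjusted p 0.260) and 1.64 ± 0.43 against young PBS (adjusted p 0.161). The 5 receptor genes had 0 calls by limma, with 0, 1 and 1 at an unadjusted p below 0.05. Of 14 partners of PPAR gamma and fat cell factors 12 were tested and 0 called, with 1, 0 and 3 at an unadjusted p below 0.05. Rxra, the usual partner of PPAR gamma, had 28.6 and 29.5 with old MIT-001, 26.5 and 30.5 with old PBS, and 18.7 and 46.7 TPM with young PBS.

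Paralogs of Fabp4 and Retn had patterns of their own. Fabp3, the heart-type carrier, had 38.7 and 50.3 TPM with old MIT-001, 94.8 and 79.9 TPM with old PBS, and 46.8 and 23.2 TPM with young PBS. Its highest library, replicate 1 labelled old PBS, was the lowest for Fabp4. Its lowest, replicate 2 labelled young PBS, was also low for Fabp4, at 7.10 TPM. Fabp5 had 68.5 and 46.4 with old MIT-001, 111 and 105 with old PBS, and 126 and 29.1 TPM with young PBS, so it peaked in the same library as Fabp4 but over a range of only 4.32-fold. Retnla, a resistin-like gene of activated macrophages, had 8.00 and 1.57 TPM with old MIT-001, was listed at 0 in either with old PBS, and had 5.35 and 1.95 TPM with young PBS. Of 12 paralogs 8 were tested and 0 called by limma, with 2, 3 and 1 at an unadjusted p below 0.05.

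Markers of other cells also differed between libraries, and not all of their sums peaked in the library with the most Adipoq. Their part in the values of the fat cell genes was not tested. Macrophage genes summed to 516 to 591 TPM in libraries labelled old MIT-001, 207 to 222 TPM in libraries labelled old PBS and 950 to 1291 TPM in libraries labelled young PBS. All 10 were lower with old PBS than with young PBS, 2 of them called (C1qa and C1qc, both with limma's adjusted p 0.0433), and all 10 were higher with old MIT-001 than with old PBS. Endothelial genes, which mark another site of Fabp4, summed to 392 to 489 with old MIT-001, 536 to 616 with old PBS and 492 to 634 TPM with young PBS, and 0 of the 9 were called. The most abundant, Egfl7, Cdh5, Esam and Cldn5, each stayed within 1.90-fold. Gpihbp1, the capillary anchor of lipoprotein lipase, had 16.0 and 10.2 with old MIT-001, 6.11 and 5.17 with old PBS, and 27.0 and 9.01 TPM with young PBS. Skeletal muscle genes summed to 7.03 to 18.4 with old MIT-001, 5.57 to 6.43 with old PBS and 6.68 to 14.0 TPM with young PBS. That was below Car3 alone in every library but replicate 1 labelled old PBS, and 0 of the 5 tested of 10 were called. The list is not one of slow muscle, the muscle of Car3, so its sum does not measure slow muscle RNA. Oviduct genes summed to 401 to 699 with old MIT-001, 32.1 to 35.6 with old PBS and 96.3 to 151 TPM with young PBS, and mesothelium and ovarian surface genes to 621 to 653 with old MIT-001, 159 to 164 with old PBS and 247 to 354 TPM with young PBS, with Krt18 called in old MIT-001 against old PBS (limma's adjusted p 0.0343). Plasma and mast cell genes summed to 22.3 to 132 TPM with old MIT-001 and 42.2 to 53.6 TPM with old PBS. With young PBS they summed to 32.6 to 192 TPM. With old PBS most of the sum was Derl3, at 39.9 and 52.0 TPM, while Jchain had 0.266 and 0.560 TPM. The mast cell genes Mcpt4, Tpsb2, Cpa3 and Cma1 stood at 0 in each library labelled old PBS. Mcpt4 had 19.7 and 0.513 TPM with old MIT-001 and 40.3 and 5.14 TPM with young PBS, and was thus highest in the library with the most Adipoq. Oocyte genes summed to 37.2 to 72.2 with old MIT-001, 394 to 424 with old PBS and 31.8 to 261 TPM with young PBS. All 6 were higher with old PBS than with young PBS and lower with old MIT-001 than with old PBS. Fat cell progenitor and fascia genes summed to 282 to 345 with old MIT-001, 236 to 263 with old PBS and 216 to 277 TPM with young PBS, with medians of -0.20, 0.77 and 0.36 in the 3 comparisons and 0 of 8 called. Pdgfra, a receptor of stromal progenitors, lay between 51.1 and 110 TPM and Cd34 between 92.2 and 141 TPM. Over all lists limma called 3, 1 and 0 of the 143 genes tested, with 47, 50 and 32 at an unadjusted p below 0.05, beside 18.1%, 11.8% and 17.9% of all genes tested. All 4 calls were lost when any library labelled old MIT-001 or old PBS was left out, since 0 genes were then called in either comparison.

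The genes whose pattern was most like the mean of the 10 were ranked by Pearson correlation over the 6 libraries among 13869 genes of mean TPM at least 1. The first 8 were Rpl10a (0.996), Nfkbie (0.981), Mrpl23 (0.981), the immunoglobulin segment Ighv1-78 (0.973), Arhgap25 (0.968), Clec4b1 (0.961), Klra2 (0.961) and Sh2d1b1 (0.957). Ighv1-78 had 25.8 TPM in replicate 1 labelled young PBS and at most 0.485 TPM elsewhere, and Klra2, a receptor of natural killer cells, 8.52 TPM there and at most 0.609 TPM elsewhere. These are genes that peak in that library, as 11.8% of all genes tested did. Of the 10 genes themselves, Lep, Adipoq and Cidec correlated with their common mean at 0.98 or more. Cfd, Retn and Fabp4 stood at 0.95, 0.94 and 0.87, and Car3 at 0.67. Pparg, Plin1 and Plin4 stood at -0.22, -0.51 and -0.54. Each gene is itself part of that mean, so these correlations test nothing.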

How the data were processed

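Ovary RNA of 6 libraries was sequenced after extraction with TRIzol and a SMARTer library kit, per the labels' protocols. The submitters' processing notes name Trimmomatic, HISAT2 and StringTie and the build mm10; their versions, the annotation and the use of strand were not given in the sources used here. The deposited TPM are scaled for length and to 1000000 per file, per the file headers and sums. The deposited FPKM are TPM divided by a constant of 1.89 to 2.31 per file and served as an alternative. The deposited coverage signal is, per the file headers, the read depth over a gene and was used only to judge depth; a gene of 1 to 2 TPM had a median depth of 3.40 to 4.59. Read counts were not used here, so no counting intervals are given.

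Symbols came from the RefSeq gene table of GRCm38.p6, matched on Gene ID; 98 rows per file did not match and held at most 0.0301% of TPM. Genes of at least 1 TPM in at least 2 libraries (16473) were fitted as log2(TPM + 1) with limma 3.58.1 (R 4.3.3), with 1 mean per group, all 6 libraries, an intensity trend, 3 residual and 3.12 prior degrees of freedom, two-sided tests and Benjamini-Hochberg adjustment over all genes tested. With 2 libraries a group, an exact permutation test cannot reach 0.05, so none is given. Members, lists and comparisons were chosen with earlier results of these data known. The rule for named genes took from each list up to 4 genes with the most TPM, called genes, and all perilipin, CIDE and receptor genes; not all of these are named, and lists of other cell types are given mainly by their sums. Ucp1, Lipe, Rxra, Retnla, Gpihbp1, Sncg, Adrb3, Pck1 and the mast cell genes beyond Mcpt4 and Tpsb2 were named after their values were seen. As alternatives, the pseudocount was set to 0.1, the filter was dropped or raised to 5 TPM, and further runs used FPKM, median centring, no trend, fitting the 4 libraries compared, a replicate block, and leaving out each library.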

Additional observations from a re-analysis of the deposited data

How the results depend on the processing

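Counts of called genes over all genes depended on the libraries and settings. For old PBS minus young PBS the count was 6, and it was 1 with no filter, 11 with FPKM, 15 with median centring, 1 with no intensity trend, 0 when only the 4 libraries compared were fitted, and 0 to 1152 when a library was left out. For old MIT-001 minus old PBS it was 3, and it was 0 with no filter, 1 with FPKM, 1 with median centring, 442 when only the 4 libraries compared were fitted, and 0 to 399 when a library was left out. For old MIT-001 minus young PBS it was 0 under all alternatives run, with 2954 genes at an unadjusted p below 0.05. The replicate numbers of the labels are shared by the groups, but nothing says that they pair animals: deviations of equal numbers correlated across genes at 0.007 for old PBS with young PBS, 0.175 for old MIT-001 with old PBS and 0.239 for old MIT-001 with young PBS. With a replicate block the counts were 1, 0 and 0 in that order of comparisons.

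The median log2 fold change of the members for old PBS minus young PBS was -0.05 with the filter at 5 TPM, which leaves 5 of them, and -4.08 to -0.73 when a library was left out. For old MIT-001 minus old PBS it was 0.81, and it was -0.13 with the filter at 5 TPM, 1.74 with a pseudocount of 0.1 and 0.50 to 1.16 when a library was left out. For old MIT-001 minus young PBS it was -0.24, and it was -0.65 with median centring and -1.73 to 0.22 when a library was left out. Pparg stood at 1.47 in old PBS minus young PBS without replicate 1 labelled young PBS. In old MIT-001 minus old PBS, Car3 and Pparg were called with only the 4 libraries compared (limma's adjusted p 0.0467 and 0.0417). In that run 442 of the 16015 genes tested were called. Of 316 member fold changes under alternatives, 25 moved by more than 1 SD and 15 had the other sign, 6 of them Plin4. Median centring moved the median of all genes for old PBS minus young PBS to -0.09 from 0.23 and the share of higher genes among those with an unadjusted p below 0.05 to 36.2% from 80.5%. Dividing by a sum with Plin1 in place of Adipoq gave log2 ranges of 3.95 for Lep (0.66 per Adipoq) and 3.82 for Plin1 (8.36). Their contrast was lost there, but Plin1 is itself part of that divisor. Its own range is narrowed by construction, so the loss tests nothing. A sum of Adipoq, Cfd, Retn and Cidec, chosen after seeing the data, gave 1.56 for Lep, 2.39 for Fabp4 (1.96) and 9.13 for Plin1. The TPM of Lep and Retn is limited by depth in most libraries.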
